A study of Mus musculus with 52 samples.

Results

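Livers of mice given dipropylnitrosamine (DPN) once were followed at 4 h, 20 h, 14 days and 28 days. The arrays described are the 8 of 52 whose titles name DPN or the DPN control, 4 treated and 4 control arrays with 1 of each at every time, and they were chosen by title alone. All mice were 9-week-old male B6C3F1 mice, a hybrid strain long used in carcinogenicity testing. The treated mice received 250 mg/kg DPN by a single intraperitoneal injection and the controls of that set received saline. Every array held liver RNA pooled from 5 mice, and no array was repeated, so the spread between mice cannot be seen. Saline controls of 3 other sets exist at each time, 1 each from the N-ethyl-N-nitrosourea (ENU) set, the dimethylnitrosamine (DMN) set and the set shared by ethanol and phenobarbital, and their values are given below in that order.

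DPN is a dialkyl nitrosamine and causes liver tumours in rodents. Cytochrome P450 enzymes of the hepatocyte hydroxylate it to unstable products that alkylate DNA. Damaged DNA stabilises the transcription factor p53, which switches on genes that halt the cell cycle, genes that lead to cell death, and genes that feed back on p53 itself.

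Values are log2 signals after each array was brought to a common median, and signals under 32.5 were raised to that floor (a log2 signal of 5.02). A log2 ratio is the DPN signal minus that of its own control on this scale, so a ratio of 1 is a 2-fold difference. Where the control or the treated array sits at the floor the ratio is a bound, written as at least that size. A single pair of arrays has no test of its own. The ratio was therefore tested with limma against the spread among the 3 other saline controls of each time (8 residual degrees of freedom, Benjamini-Hochberg adjusted p under 0.05), which measures the spread between saline pools. A gene is also called above or below all saline controls where the DPN array lies outside the range of all 4.

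The arrays held the labelled tissue by its markers, whose mean log2 signal was 12.68 to 13.18 on these and the other saline arrays. Of 16 hepatocyte markers, 0 were 2-fold different from the own control at any time, where 1.29% to 3.71% of all genes were each way, and their median log2 ratio ran from -0.28 at 20 h to 0.08 at 14 days. The medians of the 8 DPN and control arrays before scaling ran from 49.9 to 84.4 (arrays of 1 pool each, so their number sets how precise a value can be). Those of all 16 saline controls ran from 40.5 to 205.1, highest in the DMN set at 14 days. The DMN control of 14 days enters the limma spread and the DMN ratios of that time. In the saline array of the ethanol and phenobarbital set at 20 h the phenobarbital-inducible Cyp2b10 stood at 11.48, and in the other 3 saline arrays of that time at 6.80 to 7.26. That array enters the spread at all times, and calls that end without it are named below. In whole liver, fewer cells of a type and less RNA per cell cannot be told apart.

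At 4 h 454 probe sets were at least 2-fold higher and 334 lower than in the own control, 788 of 18349 (4.29%). At 20 h the counts were 432 and 413 (845, 4.61%), at 14 days 802 and 360 (1162, 6.33%) and at 28 days 253 and 244 (497, 2.71%). Pairs of saline controls also differed in many probe sets. The 6 pairs of each time had 516 to 720 such probe sets at 4 h, 457 to 703 at 20 h, 552 to 1360 at 14 days and 421 to 628 at 28 days. The DPN pair thus exceeded every saline pair at 4 h and at 20 h, and lay within their range at 14 and 28 days. Of the 2-fold probe sets, 225 higher and 130 lower at 4 h were also 2-fold away from the mean of the 3 other saline controls, as were 162 and 158 at 20 h, 134 and 57 at 14 days and 60 and 61 at 28 days. Limma called 118 probe sets at 4 h (0.643%), 125 at 20 h (0.681%), 155 at 14 days (0.845%) and 57 at 28 days (0.311%). In 56, 51, 71 and 40 of these the 3 other saline controls were all at the floor at that time. That time then added no spread to the error, which limma pools over the 4 times, so such calls rest in part on the floor.

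**Figure D1:**
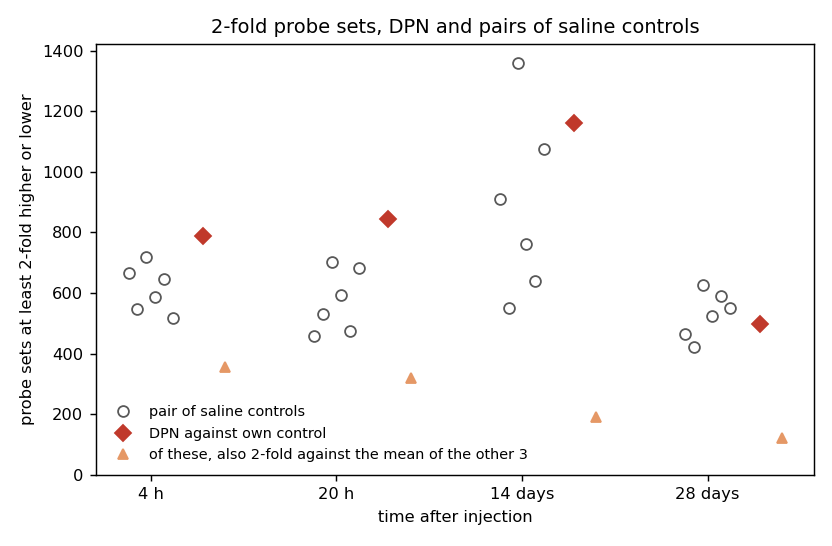
Number of probe sets at least 2-fold higher or lower (vertical axis) at each time (horizontal axis), for DPN against its own control (diamonds), for the 6 pairs of saline controls (circles), and for those DPN probe sets that were also 2-fold away from the mean of the other 3 saline controls (triangles). The DPN count lies above all 6 saline pairs at 4 h (788) and 20 h (845) and within them at 14 days (1162) and 28 days (497).

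Several targets of p53 were high at 4 h and still lay above all saline controls at 28 days. Cdkn1a, which encodes the cell cycle inhibitor p21, lay 20.8-fold above its control at 4 h, at least 51.0-fold at 20 h, at least 14.3-fold at 14 days and 7.30-fold at 28 days. Plk2, a p53-induced kinase, Phlda3, an inhibitor of AKT, and Ccng1, which encodes cyclin G1, were also at least 2-fold above the control at all 4 times. Averaged over the times, limma called all of them higher.

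For Cdkn1a the DPN signals were 10.72, 10.69, 8.86 and 8.87 at the 4 times in order, and those of the own control were 6.34, 5.02, 5.02 and 6.00. The other saline controls had 5.95, 7.75 and 5.70 at 4 h, 5.02, 5.98 and 6.19 at 20 h, 5.66, 5.17 and 5.04 at 14 days, and 5.26, 5.46 and 6.19 at 28 days. The treated arrays were above every saline array at every time. The log2 ratios were 4.38 at 4 h, at least 5.67 at 20 h, at least 3.84 at 14 days and 2.87 at 28 days (SE 0.92 each). By limma the ratio of 20 h passed alone (adjusted p = 0.0277), and those of the other times did not (adjusted p = 0.0925, 0.131 and 0.716). The call at 20 h was lost without the saline controls of any 1 set, with an adjusted p up to 0.126. By limma the mean over the times was 4.19 (SE 0.46, adjusted p = 0.00204), and stayed called without any 1 of those sets (adjusted p between 0.00492 and 0.0327). Against the mean of the 4 saline controls the ratios of 4 h (4.28) and 14 days (3.64) passed as well (limma adjusted p = 0.00251 and 0.0393). A second probe set of Cdkn1a gave smaller ratios of 1.49, 1.95, 0.57 and 0.42, and limma called its ratio of 4 h. With the floor at the 40th percentile the 4 h ratio of the first probe set was called as well.

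Plk2 had DPN signals of 9.36, 9.18, 7.43 and 7.59, with 5.02, 5.81, 6.13 and 6.13 in the own control. The 12 other saline values lay between 5.74 and 7.30. Each DPN array was again above every saline array of its time. The log2 ratios were at least 4.33 at 4 h (adjusted p = 0.0125), 3.37 at 20 h (adjusted p = 0.0461), 1.31 at 14 days and 1.46 at 28 days (SE 0.61 each). Those of 14 and 28 days were not called. Both calls were lost without the saline controls of any 1 set (adjusted p up to 0.108 at 4 h and 0.187 at 20 h), and that of 20 h also without the saline array of the ethanol and phenobarbital set at 20 h. The mean was 2.62 (SE 0.31, adjusted p = 0.00343, and 0.00843 to 0.0393 without 1 set).

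The saline controls of Ccng1 varied little. Its 16 saline signals lay between 7.84 and 8.67, and the DPN signals were 9.88, 10.92, 9.31 and 9.44. The ratios were 1.73, 2.82, 1.47 and 1.22 (SE 0.34 each), of which that of 20 h passed (limma, adjusted p = 0.00483, and 0.0523 without the controls of the ethanol and phenobarbital set). The mean was 1.81 (SE 0.17, adjusted p = 0.000681, and 0.00204 to 0.0239 without 1 set). Its other probe sets gave 3.43, 3.06, 2.39 and 1.37, and 2.42, 2.96, 1.74 and 1.01. Limma called the 4 h ratio of 2.42. The 4 h ratio of 1.73 passed under quantile normalization and with the mean of the 4 saline controls. Phlda3 had DPN signals of 8.87, 9.95, 8.79 and 8.61 against 6.92, 6.66, 7.21 and 6.92 in the own control, with ratios of 1.95, 3.29, 1.58 and 1.68 (SE 0.53 each). Its 20 h ratio passed (adjusted p = 0.0277), but not without the controls of the ENU set or of the ethanol and phenobarbital set (up to 0.165). The mean of Phlda3 was 2.12 (SE 0.27, adjusted p = 0.00504) and lost its call without the ENU set (0.0575).

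**Figure D2:**
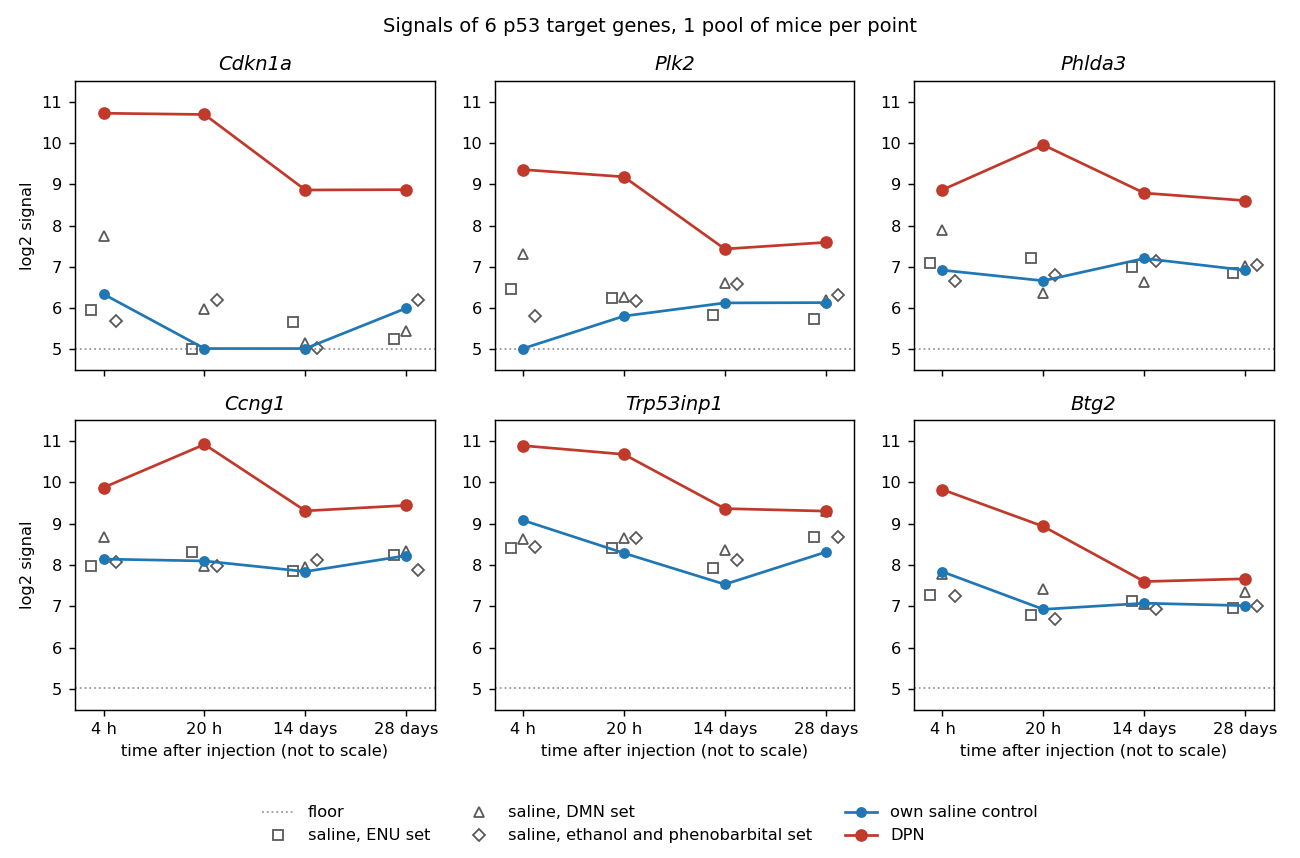
Log2 signal (vertical axis) of 6 p53 target genes at each time (horizontal axis, not to scale) on the DPN array, its own saline control and the 3 other saline controls, 1 pool of mice per point, with the floor of 5.02 as a dotted line. The DPN points lie above all saline points in every panel at every time, with Trp53inp1 at 28 days (9.30) level with the highest saline point to 2 decimals.

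Only 5 of 10755 genes were at least 2-fold higher at all 4 times (0.0465%), and 0 were lower at all 4 (0%). Besides Cdkn1a, Plk2, Phlda3 and Ccng1 this was Gm6958, a predicted gene, whose ratios were at least 1.98, 2.88, 2.65 and 2.14 since all its saline arrays were at the floor. Pairs of saline sets gave counts of a like size. The saline controls of the ENU and DMN sets, set against each other, gave 4 genes higher and 6 lower at all 4 times, and those of the DMN and DPN sets gave 4 and 3. The other 4 pairs of saline sets gave at most 2 each way, and the treated arrays of ENU and of DMN gave 0 each way against their own controls. With no fold limit, DPN lay above all 4 saline controls at all 4 times for 179 genes (1.66%) and below them for 27 (0.251%). Ranked by the mean log2 ratio to the 4 saline controls, the 179 were led by Cdkn1a (4.05), Gm6958 (at least 2.41), Plk2 (2.23), Phlda3 (2.09), Ccng1 (1.78), Trp53inp1 (1.60) and Btg2 (1.35). Below all saline controls, Lpp, an adaptor of cell adhesions, led with -1.30.

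Of 26 genes of p53-linked arrest and feedback, 22 were measured. At 4 h 10 were at least 2-fold higher and 1 lower (over all genes 2.36% and 1.93%), at 20 h 11 and 0 (2.18% and 2.37%), at 14 days 8 and 1 (3.71% and 1.87%) and at 28 days 4 and 0 (1.44% and 1.29%). Those above all 4 saline controls numbered 15, 11, 12 and 9, where 26.8%, 25.1%, 27.1% and 22.6% of all genes did so. Those below all 4 numbered 0, 0, 4 and 4, where 17.5%, 19.1%, 12.8% and 13% of all genes did so. The median log2 ratios were 0.79, 1.09, 0.58 and 0.03, beside 0, 0, 0.09 and 0 over all genes. At 20 h the median fell to 0.49 when the mean of the 4 saline controls replaced the own control. The mean log2 signal of the 22 genes was 7.67, 7.51, 6.94 and 6.75 in the DPN arrays, above the saline arrays of each time (6.48 to 6.66, 6.19 to 6.30, 6.20 to 6.51 and 6.33 to 6.52). Limma called 3 higher at 4 h, 6 at 20 h, 1 at 14 days and 0 at 28 days (0.325%, 0.288%, 0.232% and 0.186% of all genes), and 0 lower at any time (0.205%, 0.335%, 0.363% and 0.139%). The calls were Plk2, Trp53inp1 and Gadd45a at 4 h, Cdkn1a, Plk2, Phlda3, Ccng1, Trp53inp1 and Pmm1 at 20 h, and Trp53inp1 at 14 days. At an unadjusted p under 0.05, 11, 12, 7 and 5 of the 22 were higher and 0 lower at the 4 times.

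Trp53inp1, a p53-induced regulator of autophagy and cell death, was called at 3 times. Its DPN signals were 10.89, 10.68, 9.37 and 9.30 and the own control had 9.08, 8.29, 7.53 and 8.31. The ratios were 1.81 (adjusted p = 0.0325), 2.39 (0.0078), 1.83 (0.0284) and 0.99 (0.699 by limma). Each of the 3 calls was lost without the controls of the ENU set or of the ethanol and phenobarbital set (adjusted p up to 0.208, 0.0949 and 0.14), and that of 4 h also without the saline array of 20 h that stood apart. A second probe set gave -0.12 at 14 days. Btg2, an antiproliferative gene that also belongs to the immediate early list, had 1.99, 2.01, 0.52 and 0.65, and missed the threshold at 4 h and 20 h (limma adjusted p = 0.0531 and 0.0502). Both passed without the controls of the DMN set (0.0326 and 0.0295) and with the mean of the 4 saline controls (0.000305 and 0.00142).

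Among the genes that feed back on p53, Mdm2, the ubiquitin ligase that degrades it, had ratios of 1.06, 1.42, 0.76 and 0.39, was above all saline controls at the 4 times, and was not called at any time. Its second probe set gave 2.18, 1.70, 0.37 and 0.82, of which that of 4 h was called (limma adjusted p = 0.0161). Psrc1, a spindle protein, had 1.32, at least 2.30 and at least 1.59, and -0.25 at 28 days. Zmat3, an RNA-binding p53 target, had 0.55, 1.29, 0.44 and 0.80. Gadd45a, a stress sensor linked to repair and arrest, was called at 4 h, with 7.42 against 5.59 in its control and 5.02 in the 3 others (ratio 1.82), and was at the floor on all 5 arrays of 20 h. Pmm1, a phosphomannomutase, had 6.85 at 20 h, where its control was at the floor (at least 1.82), and was at the floor at 14 and 28 days. Limma called both at those times, but the controls of Gadd45a were tied and those of Pmm1 nearly so. Sesn1, which limits TOR signalling, lay between -0.20 and -0.06 at all times.

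Of 18 measured genes of p53-linked cell death, 2, 2, 1 and 1 were 2-fold higher at the 4 times (2.36%, 2.18%, 3.71% and 1.44% of all genes) and 1 was lower at 4 h (1.93%), with medians of 0.18, 0.19, 0.40 and 0.15. Aen, a p53-induced nuclease, had 1.74, 1.65, 0.80 and 0.58, always above all saline controls and not called at a single time (adjusted p = 0.0775 at 4 h). Bbc3, which encodes the death effector PUMA, had 0.07, 0.04, -0.17 and 0.09. Fas, a death receptor, had -1.54 at 4 h and 0.90 at 20 h, neither called. Siva1 had 1.58 at 20 h (limma adjusted p = 0.0567), and passed without the ENU set (0.0473) or the 20 h saline array that stood apart (0.0292). Tnfrsf12a, the receptor for the cytokine TWEAK, was at 8.08 at 4 h and 5.97 at 20 h and at the floor in all saline arrays of those times, so its ratios were at least 3.06 and 0.94. Limma called it at both times on tied controls.

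By 2-fold counts DNA repair and replication genes were near the background, in which 1.29% to 3.71% of all genes were 2-fold different each way. Of 27 repair and checkpoint genes 0 were 2-fold higher at 4 h, 20 h and 28 days and 2 at 14 days, and 1 was lower, at 20 h. Their medians ran from -0.08 to 0.21. Of 28 replication and mitosis genes, 1, 0, 1 and 0 were 2-fold higher and 0, 1, 2 and 0 lower. Their medians were 0, -0.10, -0.27 and 0.02, and the median in pairs of saline controls reached 0.27 in size at 14 days. At that time 8 of the 28 lay below all saline controls (12.8% of all genes). Ckap2, a spindle protein outside these lists, was higher at 20 h, with 7.84 against 5.92 in the own control and 6.33, 6.65 and 6.72 in the others (ratio 1.92, adjusted p = 0.0078, lost without the DMN set or the ethanol and phenobarbital set, up to 0.142).

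The promoters of the 4 named genes that stayed 2-fold higher show which of them carry a p53 motif next to the start site. The sequences are the 250 bases before the annotated start, from RefSeq on GRCm38.p6, 5′ to 3′ on the gene's strand, with matches to the p53 half-site in capitals. Cdkn1a is at chr17:29090729-29090978 (+), Ccng1 at chr11:40755287-40755536 (-), Plk2 at chr13:110394794-110395043 (+) and Phlda3 at chr1:135765835-135766084 (+).
Cdkn1a: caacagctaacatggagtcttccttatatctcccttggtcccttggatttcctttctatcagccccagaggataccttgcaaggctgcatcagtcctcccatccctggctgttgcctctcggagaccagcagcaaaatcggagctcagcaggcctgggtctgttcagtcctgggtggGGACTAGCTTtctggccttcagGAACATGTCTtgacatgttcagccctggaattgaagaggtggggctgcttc
Ccng1: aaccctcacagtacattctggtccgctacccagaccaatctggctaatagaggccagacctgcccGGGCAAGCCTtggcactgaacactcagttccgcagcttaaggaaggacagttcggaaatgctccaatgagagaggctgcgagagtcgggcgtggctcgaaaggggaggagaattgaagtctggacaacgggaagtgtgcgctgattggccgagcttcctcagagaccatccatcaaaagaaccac
Plk2: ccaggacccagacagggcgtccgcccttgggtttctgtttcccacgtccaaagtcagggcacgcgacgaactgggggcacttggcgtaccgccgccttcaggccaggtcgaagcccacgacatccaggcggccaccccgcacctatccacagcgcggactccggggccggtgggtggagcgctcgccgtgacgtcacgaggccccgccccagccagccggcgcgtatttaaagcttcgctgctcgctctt
Phlda3: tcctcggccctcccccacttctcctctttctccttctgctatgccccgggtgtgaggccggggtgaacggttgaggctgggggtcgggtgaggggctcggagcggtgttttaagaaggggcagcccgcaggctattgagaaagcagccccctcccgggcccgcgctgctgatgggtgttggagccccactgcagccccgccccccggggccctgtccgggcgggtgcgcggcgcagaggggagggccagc
The half-site is its own reverse complement, so a match on one strand is a match on both. Cdkn1a held 2 of them, beginning 73 and 51 bases before the start, and a second annotated start of Cdkn1a held 0. Ccng1 held 1, beginning 185 bases before the start. Plk2 and Phlda3 held 0 in this window. Of 32851 promoter windows of this length, 7.13% held at least 1 and 0.259% held 2 or more. Of 37 measured genes of the p53 lists with a window, 9 held at least 1 (24.3%), against 8.2% of 27025 genes with a window. A match describes the letters of the window and does not show binding.

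The other alkylating agents were given at other doses, 150 mg/kg for ENU and 5 mg/kg for DMN, so their values stand beside those of DPN without a test. For Cdkn1a the ENU ratios were 3.68, at least 3.63, 0.81 and 2.10, and the DMN ratios were 2.02, 4.69, 0.50 and 1.66. For Ccng1, ENU had 1.27, 1.77, 0.49 and 0.01 and DMN had 1.22, 2.52, 0.38 and 0.06. For Phlda3, ENU had 1.58, 1.55, 0.48 and 0.04 and DMN had 0.87, 3.26, 0.42 and 0.47. At 4 h and 20 h all 3 agents lay above their controls for these genes. At 14 days DPN had ratios of 1.31 to 3.84 for Cdkn1a, Plk2, Phlda3 and Ccng1, while those of ENU and DMN lay between -0.14 and 0.81. These 4 genes were chosen for DPN ratios of at least 1 at all 4 times, so a DPN ratio above 1 was fixed in advance. The ENU and DMN ratios were under no such choice. Over all 22 genes of p53-linked arrest and feedback the medians at 14 days were 0.58 for DPN, 0.23 for ENU and 0.13 for DMN. Each agent has its own control, so these differences include those between controls.

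**Figure D3:**
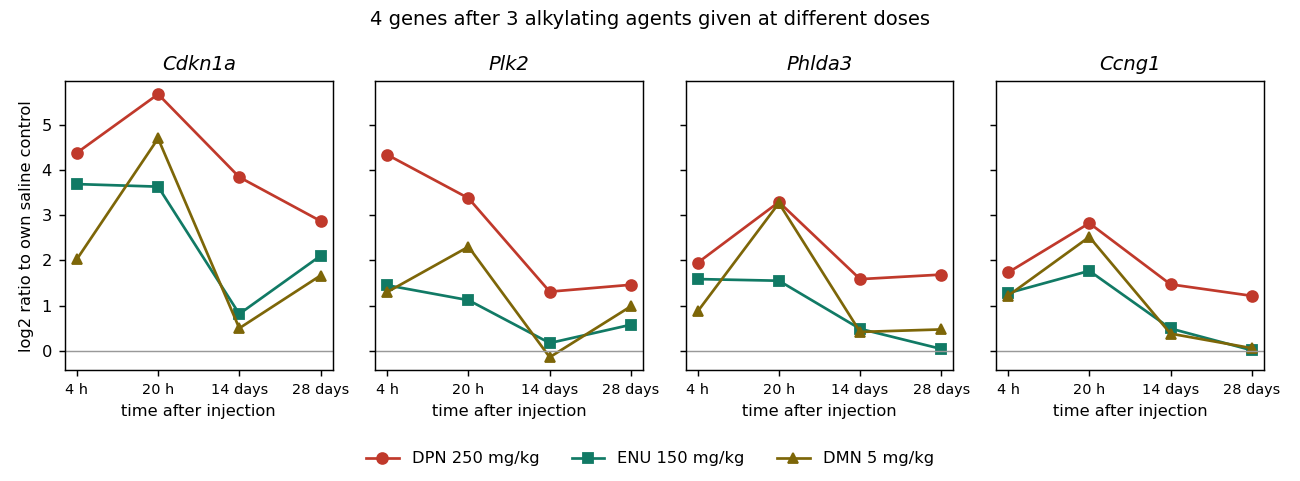
Log2 ratio to the own saline control (vertical axis) of Cdkn1a, Plk2, Phlda3 and Ccng1 at each time (horizontal axis) after DPN at 250 mg/kg, ENU at 150 mg/kg and DMN at 5 mg/kg, 1 array pair per point. The lowest DPN ratio is 1.22, for Ccng1 at 28 days, while the ENU and DMN lines lie between -0.14 and 0.81 at 14 days. The genes were chosen for being at least 2-fold higher with DPN at all 4 times. Ratios with a control at the floor are bounds.

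At 4 h genes of early stress and hormone responses lay high beside the p53 targets. Of 26 immediate early genes, 10 were 2-fold higher and 0 lower (2.36% and 1.93% of all genes), with a median of 0.82, and 18 lay above all saline controls (26.8% of all genes). Of 27 genes induced by fasting or glucocorticoids, 11 were 2-fold higher and 1 lower, with a median of 0.76, and 22 lay above all saline controls. In pairs of saline controls the median of neither list exceeded 0.32 in size. At 20 h the medians were 0.27 and 0.10. With ENU and DMN, at other doses and without a test, the medians at 4 h were 0.49 and 0.90 for ENU and 0.07 and 0.15 for DMN. These lists share genes with the p53 targets and with each other (Btg2, Cdkn1a, Dusp1 and Gadd45b).

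Ppp1r3c, which directs glycogen synthesis, had 12.17 with DPN at 4 h against 9.72 in the own control and 9.71, 9.88 and 9.41 in the other saline arrays. It rose 5.46-fold (log2 ratio 2.45, SE 0.41, limma adjusted p = 0.0279), and the call was lost without the DMN set, the ethanol and phenobarbital set, or the 20 h saline array that stood apart (up to 0.19). At 20 h its ratio was 0.22. Ripk4, a kinase of epithelial differentiation, had 7.81 against 5.79 in the own control and 5.94 to 6.16 in the others (2.02, adjusted p = 0.0283, up to 0.257 without the ENU or DMN set). Atf3, a stress-induced transcription factor, had 7.48 where its control was at the floor (at least 2.46), and the others had 5.02 to 5.34, close to the floor.

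Of the remaining hormone and stress genes none was called at 4 h. Jun, a subunit of AP-1, had a DPN signal of 9.79 against 7.70 in the own control and 6.97 to 7.42 in the others (ratio 2.10, adjusted p = 0.0925, and 0.0259 without the 20 h saline array that stood apart). Dusp1, a phosphatase that limits MAP kinases, had 2.24. Ddit4, an inhibitor of mTOR signalling, had 1.97, Sgk1, a glucocorticoid-induced kinase, 1.44, Per1, a clock gene that glucocorticoids induce, 1.39, Angptl4, a lipoprotein lipase inhibitor, 1.39 and G6pc, which releases glucose from the liver, 1.30. All of these lay above all 4 saline controls at 4 h. Dusp6, a phosphatase of ERK that was chosen after its values were seen, lay above them at all 4 times, with 0.83, 1.15, 0.99 and 1.05.

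Cyp2b10, the main target of the receptor CAR, reached 11.62 at 4 h, against 7.26 in the own control and 6.49, 6.81 and 8.28 in the others. The ratio of 4.36 was not called (limma adjusted p = 0.658, SE 1.85), but it passed without the controls of the ethanol and phenobarbital set, which include the 20 h array that stood apart (adjusted p = 0.024). At 20 h the ratio was 0.99, and 2.49 by another probe set. Nr1i2, which encodes the receptor PXR, had 1.87 at 4 h and Alas1, the first enzyme of heme synthesis, had 1.01. Of 30 CAR and PXR induced genes 6 were 2-fold higher and 1 lower at 4 h (2.36% and 1.93% of all genes), but the median was 0.06. Other well-known members, the cytochromes Cyp3a11 and Cyp2c29, had 0.13 and -0.02.

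Lower genes at 4 h included Lrp1, a lipoprotein receptor of hepatocytes, with 8.43 against 9.99 in the own control and 9.92 to 10.29 in the others (ratio -1.56, SE 0.25, adjusted p = 0.0235). F5, which encodes coagulation factor V, had 9.55 against 10.81 and 10.73 to 11.06 (-1.27, adjusted p = 0.0246). Abca1, a cholesterol efflux transporter, had 9.53 against 11.05 and 10.29 to 10.55 (-1.51, adjusted p = 0.0284). In each of the 3 the DPN array was below all saline arrays. The calls of Lrp1 and F5 were lost without the DMN or the ethanol and phenobarbital set (up to 0.286 and 0.216), and that of Abca1 without any 1 set (up to 0.17) and with the mean of the 4 saline controls.

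Other lower calls at 4 h followed a high own control. Tifa, an adaptor of NF-kappaB signalling, had 7.00 with DPN and 9.94 in the own control, but 7.87, 7.67 and 7.32 in the other saline arrays, so the ratio of -2.95 (adjusted p = 0.00121) became -0.62 against those 3. Tlr2, a receptor for bacterial lipoproteins, went from -2.41 to -0.51 in the same way, and Icam1, an adhesion molecule, from -1.39 to 0.37. Without the DMN set the adjusted p of Tifa was 0.087, and those of Tlr2 and Icam1 also passed 0.05 without the ethanol and phenobarbital set, Icam1 without the ENU set as well (up to 0.197 and 0.204). Over all genes 1.93% were 2-fold lower and 2.36% higher at 4 h. Of 27 acute phase genes 8 were 2-fold lower at 4 h and 0 higher, with a median of -0.33, yet -0.04 against the mean of the 4 saline controls. The own control had 11.91 for Lcn2, which encodes an iron-chelating neutrophil and acute phase protein, and 11.24 for the chemokine Cxcl1, where the other saline arrays had 5.82 to 9.34 and 6.98 to 8.93. The mean signal of the list was 11.85 in the own control at 4 h and 10.50 to 11.29 in the others, with 10.85 for DPN inside that range. Of 29 chemokine and inflammatory genes, 6 were 2-fold lower and 0 higher. Of 10 neutrophil markers 3 were 2-fold lower than in this control, Lcn2 among them, and the mean log2 signal of the 10 was 6.94 in the own control, 6.24 to 6.52 in the other saline arrays and 6.24 with DPN. The part of such cells in these values was not tested.

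**Figure D4:**
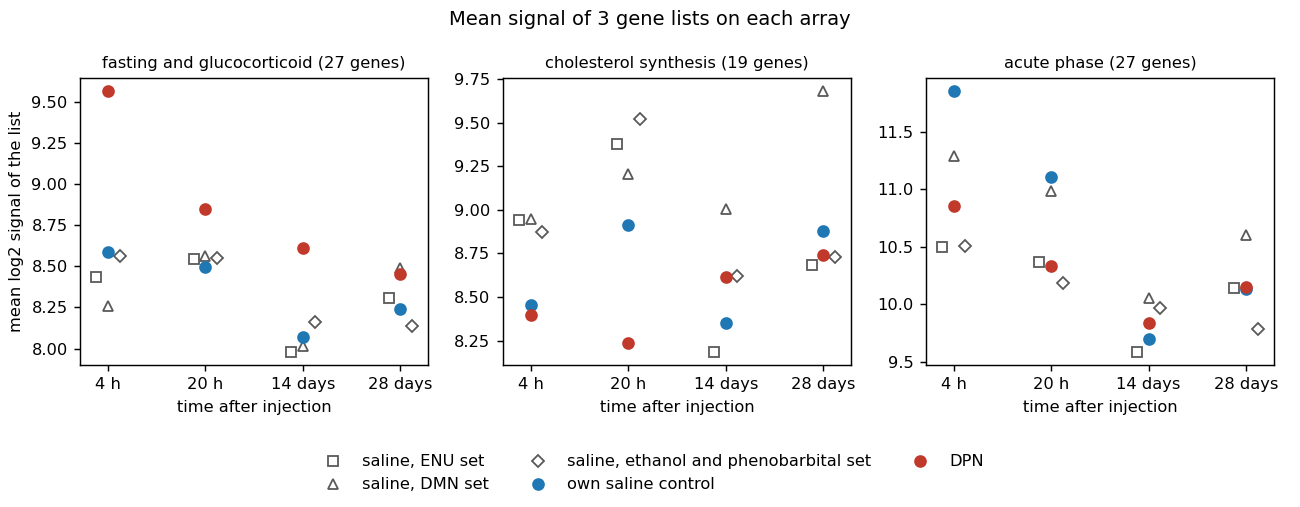
Mean log2 signal (vertical axis, a different range in each panel) of 3 gene lists on the DPN array, its own control and the 3 other saline controls at each time (horizontal axis). The DPN array is above all saline arrays for fasting and glucocorticoid genes at 4 h, below them for cholesterol synthesis at 20 h (8.24 against 8.91 to 9.52), and within their range for acute phase genes at 4 h.

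At 20 h genes of lipid synthesis lay low beside the high p53 targets. Of 19 cholesterol synthesis genes 7 were 2-fold lower and 0 higher (2.37% and 2.18% of all genes), with a median of -0.68. Of the 19, 16 lay below all 4 saline controls, where 19.1% of all genes did. Against the mean of the 4 saline controls the median was -0.999. Of 22 fatty acid synthesis genes 5 were 2-fold lower and 0 higher, with a median of -0.66, and 12 lay below all saline controls. Limma called 0 members of either list, while 3 and 5 had an unadjusted p under 0.05 and lower values. Pairs of saline controls of 20 h had medians of up to 0.60 and 0.55 in size for these lists. At 4 h 10 cholesterol and 8 fatty acid synthesis genes lay below all saline controls (17.5% of all genes), at 14 days 3 and 1 (12.8%) and at 28 days 5 and 3 (13%). With ENU and DMN, at other doses and without a test, the medians of the 2 lists at 20 h were -0.93 and -0.75 for ENU and -0.22 and -0.20 for DMN.

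Fdps, which makes farnesyl diphosphate, had 9.16 with DPN at 20 h against 10.56 in its control and 11.24, 11.12 and 11.34 in the others (ratio -1.40, adjusted p = 0.783 by limma). Msmo1 and Dhcr7, enzymes late in cholesterol synthesis, had -1.47 and -1.20. Acacb, which makes the malonyl-CoA that restrains fatty acid oxidation, was at the floor with DPN and at 7.93 in its control, 7.61 to 8.44 in the others, at least 2.91 lower but not called (adjusted p = 0.291). Thrsp, which promotes lipogenesis, stood at -2.03. Fasn, which makes palmitate, stood at -1.16. All 6 lay below all saline controls.

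Fatty acid oxidation genes lay the other way. Of 27 targets of the receptor PPAR-alpha, 5 were 2-fold higher and 0 lower at 20 h (2.18% and 2.37% of all genes), with a median of 0.30. Of these 27, 17 lay above all saline controls (25.1% of all genes), and the median in pairs of saline controls reached 0.17. Limma called 0 of them, and 4 were higher at an unadjusted p under 0.05. At 20 h Cyp4a14, a fatty acid hydroxylase, had 11.33 with DPN against 5.36 in its control and 5.03, 5.95 and 7.95 in the others (ratio 5.97, SE 1.88, adjusted p = 0.337). Acot1, an acyl-CoA thioesterase, had 8.81 with its control at the floor (at least 3.79). Both passed when saline arrays of the set run with ethanol and phenobarbital were left out (limma adjusted p = 0.0254 for Cyp4a14 and 0.038 for Acot1). Ehhadh, of peroxisomal beta-oxidation, had 1.24. Apoa4, a lipoprotein component, was called higher, with 11.87 against 9.84 in its control and 9.53 to 9.83 in the others (2.02, SE 0.33, limma adjusted p = 0.0276, up to 0.194 and lost without any 1 set).

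Lower calls at 20 h included enzymes of amino acid and pyrimidine metabolism and a hormone receptor. Glul, the glutamine synthetase of hepatocytes around the central vein, fell 5.44-fold, with 8.29 against 10.74 in its control and 10.83, 10.68 and 10.59 in the others (log2 ratio -2.44, SE 0.35, limma adjusted p = 0.014). At 4 h and at 14 and 28 days its ratios were -0.40, 0.24 and -0.33. Dpyd, which degrades pyrimidines, had 9.35 against 11.45 and 11.32 to 11.71 (-2.10, adjusted p = 0.0284), and Prodh, which degrades proline, had 8.64 against 10.32 and 10.02 to 10.55 (-1.69, adjusted p = 0.036). By limma Ghr, the growth hormone receptor, fell by 1.57 (adjusted p = 0.0284), Reln, a matrix protein of stellate cells, by 1.79 (adjusted p = 0.012) and Lpp by 2.71 (adjusted p = 0.00414). Each lay below all saline arrays. Dpyd, Prodh, Ghr and Reln lost the call without any 1 set (up to 0.205, 0.191, 0.241 and 0.101), and Glul and Lpp without the ENU or the DMN set (up to 0.167 and 0.107).

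Other genes of the zone that holds Glul differed less. Of 19 pericentral genes, 3 were 2-fold lower at 20 h and 0 higher (2.37% and 2.18% of all genes), with a median of -0.27. Of 15 periportal genes 0 were 2-fold different, with a median of -0.19. Of 23 bile acid genes 3 were 2-fold lower at 20 h, with a median of -0.34. Abcb11, the bile salt export pump, had 9.89 against 11.28 and 11.34 to 11.58 (-1.39, limma adjusted p = 0.0889, and 0.0374 without the ethanol and phenobarbital set).

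Some genes of detoxication and stress lay high at 20 h. Ephx1, the microsomal epoxide hydrolase, had 12.43 against 11.30 in its control and 11.30 to 11.41 in the others (1.14, adjusted p = 0.0449), and lay above all saline controls at all times, with 0.16, 0.56 and 0.63 at 4 h, 14 days and 28 days. The call of 20 h was lost without the ENU or DMN set (up to 0.327) and without the saline array of that time that stood apart. Slc3a2, the heavy chain of amino acid transporters, had 9.68 against 8.44 and 8.49 to 8.67 (1.24, adjusted p = 0.0197, up to 0.158 without the DMN or the ethanol and phenobarbital set). Of 24 targets of NRF2, the regulator of antioxidant genes, 3 were 2-fold higher and 0 lower (2.18% and 2.37% of all genes), with a median of 0.31. Among the 3 were Srxn1 (1.30) and Nqo1 (1.24), both antioxidant enzymes and neither called. Aaas, which encodes a nuclear pore protein, had 8.15 with 5.02, 5.53 and 5.02 in the other saline arrays and its own control at the floor (at least 3.13, adjusted p = 0.012, lost without the ENU or DMN set, up to 0.131). Acute phase genes were again lower than in the own control, 7 of 27 by 2-fold and 0 higher, with a median of -0.45 and -0.27 against the 4 saline controls.

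**Figure D5:**
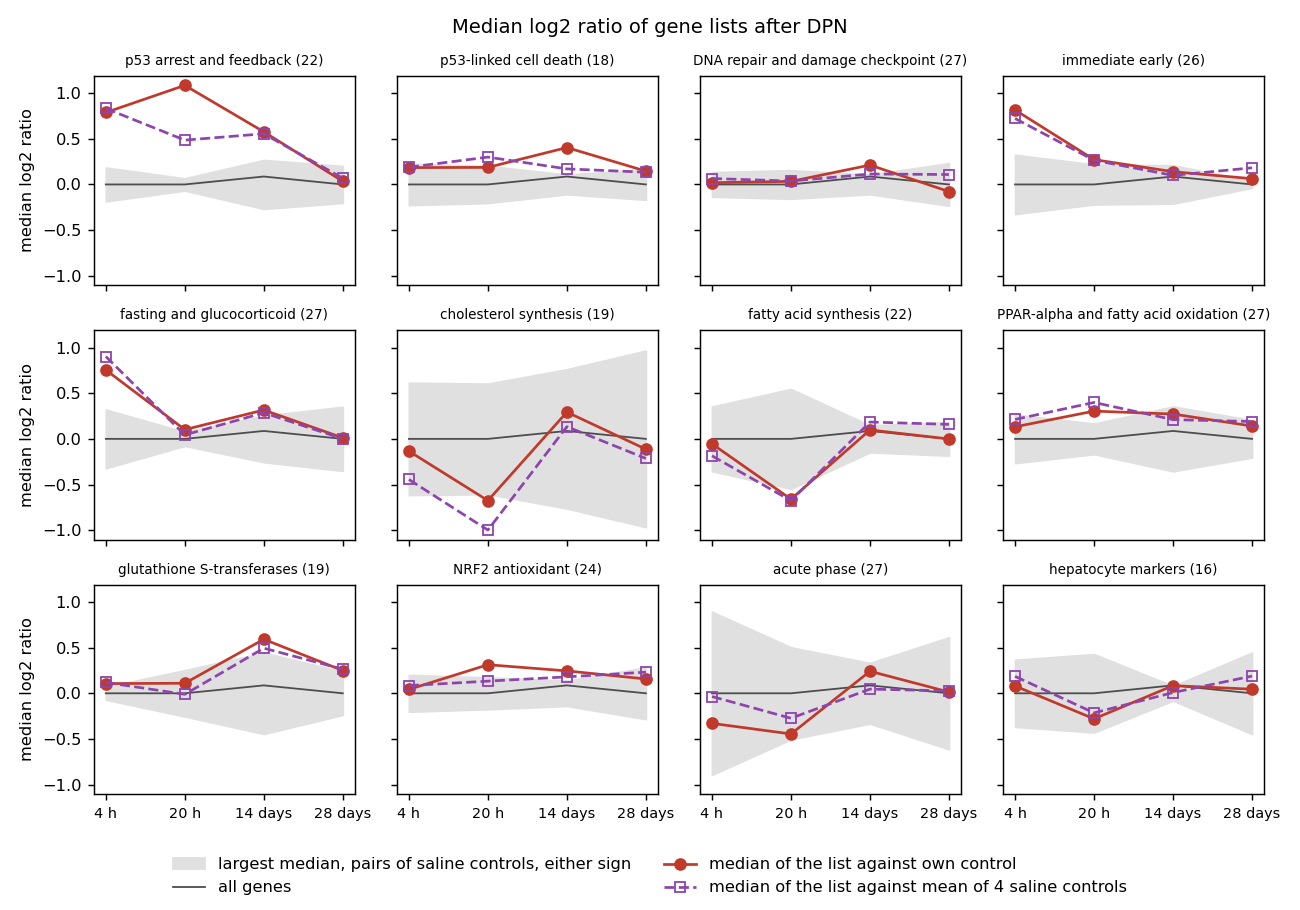
Median log2 ratio (vertical axis) of 12 gene lists, with the number of measured genes in brackets, at each time (horizontal axis), against the own control (filled points) and against the mean of the 4 saline controls (open squares). Grey bands span the largest median found in pairs of saline controls of that time with either sign, and the black line is the median over all genes. The p53 arrest and feedback list lies outside the band at 4 h, 20 h and 14 days (0.79, 1.09 and 0.58) and inside it at 28 days (0.03), and the fasting list lies outside it at 4 h (0.76).

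At 14 days the p53 targets above were still high, and 134 of the 802 higher probe sets were also 2-fold above the mean of the 3 other saline controls. Some calls rested on a low own control. Epha2, a receptor tyrosine kinase, had 8.15 with DPN and 5.17 in the own control, but 8.39, 8.61 and 7.56 in the other saline arrays. Its ratio of 2.98 was called (limma adjusted p = 0.0243) and became -0.03 against those 3, and the call was lost without the ENU or the DMN set (up to 0.181). Agfg2, an Arf GTPase-activating protein, had 7.81 with DPN, 5.29 in the own control and 7.57, 7.63 and 7.72 in the others, so its call (ratio 2.52, adjusted p = 0.000559) ended against the mean of the 4 saline controls. The median over all genes was 0.09 at this time. Glutathione S-transferases, which conjugate electrophiles, lay higher, with 3 of 19 2-fold higher and 0 lower (3.71% and 1.87% of all genes), a median of 0.59, and 12 above all saline controls (27.1%). At 28 days 0 of 19 were 2-fold higher, the median was 0.25 and 11 lay above (22.6%). The median in pairs of saline controls reached 0.45 at 14 days and 0.24 at 28 days.

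Gsta2 had 10.82 at 14 days against 9.21 in its control and 9.17, 9.83 and 10.29 in the others, and 11.08 at 28 days against 10.10 and 9.47 to 10.24 (ratios 1.60 and 0.99). Gstm3 had ratios of 1.28 and 1.00 and Gstt2 of 1.44 and 0.65 at these times. Nfe2l2, which encodes NRF2, lay above all saline controls at all 4 times, with 0.79, 0.83, 1.27 and 0.55. None of these single-time ratios passed (limma adjusted p of 0.0993 and above), but that of Nfe2l2 at 14 days passed without the ENU set (0.0436). Hmox1, the heme oxygenase, was at the floor with DPN at 14 days, where its control had 6.75 and the others 5.95 to 6.12. Its call (adjusted p = 0.0373) held under 1 of 9 alternatives, quantile normalization, and was lost without any 1 saline set (up to 0.157).

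At 28 days limma called the fewest probe sets of the 4 times. Of the 57 probe sets that limma called, 17 had other saline controls that were not tied at the floor. The p53 targets Cdkn1a, Phlda3, Plk2 and Ccng1, with ratios of 2.87, 1.68, 1.46 and 1.22, were above all saline controls, and none was called at this time against the own control, while Ccng1 passed against the mean of the 4 saline controls (limma adjusted p = 0.0294). Sgk1 had 1.26, with 7.42 against 6.17 in its control and 6.42, 7.19 and 7.18 in the others.

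Of 17 enzymes that oxidise nitrosamines and alcohols, 2, 2, 1 and 1 were 2-fold higher at the 4 times and 0 lower. Over all genes 2.36%, 2.18%, 3.71% and 1.44% were 2-fold higher and 1.93%, 2.37%, 1.87% and 1.29% lower. These shares also stand beside the counts of the other lists of this paragraph. The medians of the 17 were 0.02, -0.03, 0.27 and 0.08. Cyp2e1, the main oxidase of short-chain nitrosamines, had ratios of -0.09, -0.27, -0.15 and 0.02. Aldh3a2, a dehydrogenase of fatty aldehydes, had 1.21 at 20 h, above all saline controls and not called. Heat shock chaperones had 3 of 21 2-fold higher at 20 h, with Hspb1, a small chaperone, at 10.17 against 8.29 in its control and 8.25, 8.56 and 9.31 in the others (ratio 1.88). Of 33 genes of the unfolded protein and amino acid responses, 4 were 2-fold higher and 1 lower at 4 h and 2 and 1 at 20 h. Of 25 genes of growth hormone and IGF signalling, 2, 1, 1 and 0 were 2-fold higher and 3, 3, 0 and 0 lower at the 4 times, and 13 lay below all saline controls at 20 h (19.1% of all genes), with a median of -0.18. Interferon-stimulated genes had 3 of 24 2-fold lower at 4 h and 4 higher at 14 days. Of 30 markers that the study itself named, 16, 14, 6 and 4 were 2-fold higher at the 4 times and 1, 1, 1 and 0 lower, but the study chose them partly on these samples, so that they are no independent evidence.

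Markers of the other cells of the liver are given beside the 1.29% to 3.71% of all genes that were 2-fold different each way. Of 14 Kupffer cell markers, 1 was 2-fold higher at 20 h, and of 16 sinusoidal endothelial markers 0 were 2-fold different at any time. Of 20 collagen and stellate cell markers 1, 2, 0 and 1 were 2-fold lower and 1 was higher at 14 days. Of 15 lymphocyte markers 2 were 2-fold lower at 20 h and at 14 days and 1 was higher at 28 days. Of 9 cholangiocyte markers 0 were 2-fold different at any time. The mean log2 signal of this list ran from 5.19 to 5.54 on the DPN and saline arrays, close to the floor. That of the lymphocyte list ran from 5.445 to 5.84. Such low signals leave little room for a 2-fold fall, so low counts in either list do not show that these cells were unchanged. Of 10 neutrophil markers 3 were 2-fold lower at 4 h and 1 at 20 h, and 2 were higher at 28 days.

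For the mean of the 4 times 185 probe sets passed (1.01%), 104 of them higher and 81 lower. Counted by gene, these were 57 higher and 34 lower (0.53% and 0.316%). The ratio of the first day minus that of the later times passed for 94 probe sets (0.512%), 24 genes with a larger ratio on the first day and 18 with a smaller one (0.223% and 0.167%). For Cdkn1a this difference was 1.67 (SE 0.92, adjusted p = 0.666), for Plk2 2.47 (SE 0.61, adjusted p = 0.172) and for Ccng1 0.93 (SE 0.34, adjusted p = 0.428). The difference between the first day and later thus did not pass for Cdkn1a, Plk2 or Ccng1. Among the p53 genes it passed for Tnfrsf12a (2.00) and Pmm1 (1.01), both at the floor at the later times. Lpp passed the other way, with -1.88 (adjusted p = 0.0341). With the 4 ratios taken as 4 pairs, so that the spread is that between times, 0 probe sets were called (1596 at an unadjusted p under 0.05), and Cdkn1a had an adjusted p of 0.875 (limma, 3 residual degrees of freedom).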

How the data were processed

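Liver RNA of male B6C3F1 mice was hybridised to Affymetrix arrays as biotin-labelled cRNA, 1 array per pool of 5 mice. The deposited values are linear intensity signals, 1 per probe set and array, made by the authors and the sources used here do not give the software, background correction or scaling. The labels mapped all 52 columns to samples, and 0 columns were left unused. Of 22690 probe sets, 64 control probe sets were left out.

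Arrays were scaled to 1 common median, the mean of the 52 array medians. The floor of 32.5 was the 30th percentile of the scaled table, and lower signals were set to it before the log2 step. The 18349 probe sets above the floor on at least 4 arrays were kept. Of all probe sets, 20380 had 1 gene symbol in the platform annotation, 691 had several and 1555 none. For each gene the brightest kept probe set over the 52 arrays was used, which gave 10755 genes. Promoters came from RefSeq (GRCm38.p6).

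A linear model (limma 3.58.1, R 4.3.3, with a mean-variance trend) was fitted to the 4 DPN arrays and 16 saline arrays, each DPN array and each own control with its own mean and the 3 other saline controls of a time sharing one, which left 8 residual degrees of freedom. Adjustment (Benjamini-Hochberg, 0.05) was over all kept probe sets of a contrast. The ratio of 1 pair therefore takes its error from saline pools, as if treated pools varied alike. The labels do not say how the pools were drawn, and p-values measure only the spread between these pools. On simulated data at 4 h, 10%, 70%, 96% and 98% of 50 probe sets changed by 1, 2, 3 and 4 on the log2 scale were recovered. The changed probe sets were drawn from those with a mean signal above the median, and the simulated signals had no floor. Recovery of probe sets near the floor, where many of the calls lie, was therefore not tested. The number of false calls is not given here. The rest was computed in Python 3.11.15 (pandas 2.3.3, numpy 2.4.6, matplotlib 3.10.9).

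The alternatives were quantile normalization, the values as deposited, no floor, a floor at the 40th percentile, no filter or a stricter one, a 3-fold limit, other saline controls, no trend, and each saline set left out. Leaving out the own control, the saline array of the ethanol and phenobarbital set at 20 h, or 14 days was chosen after seeing the data. Genes were named by a rule, which took the largest ratios among limma calls at each time, the largest at 3 or 4 times, the 4 leading members of each list, and the p53 lists. Sgk1, Angptl4, G6pc, Dusp6, Cyp3a11, Cyp2c29, Cyp2e1, Fasn, Ehhadh, Slc3a2 and Gsta2 fall outside it and were chosen after their values were seen. The members, the lists and the rule were chosen with earlier results of these data known.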

Additional observations from a re-analysis of the deposited data

Results flagged for a closer look

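In 170 groups of 4 saline controls, 11 had 1 array far from the other 3 by Dixon's test, where chance gives about 1 in 20. Among genes, Cyp4a14 was at 8.336 in the control of the ethanol and phenobarbital set at 4 h, with 5.02 to 5.59 in the others, and Cyp2b10 was at 11.48 in that set at 20 h, with 6.80 to 7.26 in the others. In the DPN control at 4 h the mean log2 signal of chemokine and inflammatory genes was 6.918, above the other 3 controls (6.49 to 6.54), and that of cholesterol synthesis genes was 8.454, below them (8.87 to 8.95). In the control of the ethanol and phenobarbital set the list means that stood apart were p53 arrest and feedback at 14 days (6.515), metallothionein and zinc genes at 20 h (7.774), and heme synthesis and breakdown (8.848) and hepatocyte markers (12.71) at 28 days. In the DMN set they were DNA repair and damage checkpoint genes at 14 days (6.454) and heat shock chaperones at 20 h (9.261), and in the ENU set pancreatic enzymes at 28 days (6.636). The reason for these values was not tested.

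The log2 ratio to the own control differed between the first day and the later times for 2 of the p53 genes by limma. Tnfrsf12a was higher on the first day by 2.002 and Pmm1 by 1.012 on the log2 scale. Both were at or near the floor in the saline controls, so that their spread read as near 0.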

How the results depend on the processing

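Quantile normalization left all 10 counts of 2-fold and called probe sets within 1.5 times of those reported. Without scaling (values as deposited) the median log2 ratio of all probe sets was -0.14 at 4 h, 0.25 at 20 h, 0.64 at 14 days and 0.00 at 28 days. The 2-fold counts were then 1347 at 20 h and 4718 at 14 days (4668 of them higher), and limma called 1 at 4 h, 6 at 20 h, 0 at 14 days and 0 at 28 days (104 and 32 at an unadjusted p under 0.05 at the last 2), 5 for the mean and 1 for the first day minus later. The split of 2-fold probe sets without scaling was 255 higher and 690 lower at 4 h and 1118 and 229 at 20 h, against 454 and 334, and 432 and 413, with it. With no floor the 2-fold counts were 1915, 2151, 2404 and 1670, and limma called 38, 54, 9 and 1, with 31 for the mean and 4 for the first day minus later. With the floor at the 40th percentile the 2-fold counts were 493, 518, 714 and 198, and limma called 188 at 20 h. With no filter limma called 239, 264, 403 and 165, with 698 for the mean and 612 for the first day minus later. With probe sets above the floor in both arrays it called 22, 25, 2 and 1, and 284 were 2-fold at 28 days. With probe sets above the floor on all 8 arrays it called 30 for the mean and 1 for the first day minus later. A 3-fold limit left 177, 169, 167 and 67.

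With the mean of the 4 saline controls in place of the own control the 2-fold counts were 481 at 20 h, 341 at 14 days and 216 at 28 days, and limma called 226, 234 and 32 at the first 3 times and 353 for the mean. With the mean of the 3 other saline controls they were 531, 318 and 258 at these last 3 times. Epha2 at 14 days then turned to -0.033 and Icam1 at 4 h to 0.37, and a second probe set of Trp53inp1 gave -0.12 at 14 days. Without a mean-variance trend limma called 63, 82, 47 and 15, with 80 for the mean and 17 for the first day minus later. The mean over the times, with the times as 4 pairs, gave 0 calls (1596 at an unadjusted p under 0.05).

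Without the controls of 1 saline set limma called 57 to 132 at 4 h, 52 to 150 at 20 h, 82 to 219 at 14 days, 35 to 84 at 28 days, 88 to 250 for the mean and 57 to 204 for the first day minus later. The lowest of each came without the DMN set. Without the saline array of the ethanol and phenobarbital set at 20 h each count stayed within 1.5 times. Of the called named genes whose other controls were not tied at the floor, 10 of 11 at 4 h, 16 of 17 at 20 h and 3 of 4 at 14 days lost the call without at least 1 saline set. With 1 pool per time no pair of treated pools can be compared, and signals near the floor give bounds only. The cause of these shifts was not tested.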
